A study of Sus scrofa with 12 samples.

Results

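The 10 genes described here encode small leucine-rich proteoglycans of the extracellular matrix, namely BGN, DCN, ASPN, LUM, FMOD, PRELP, OMD, KERA, OGN and PODN. They were listed by name as members of the family, with earlier results of these data known. All 10 were found among the 35682 genes of the count tables, and all 10 passed the filter on low counts and lay among the 13844 genes tested. Their RNA was measured in 12 poly(A)-enriched, nondirectional libraries from the mid level of the left ventricle of 6 pigs, with 1 border zone and 1 remote zone library per animal. The border zone was the tissue beside the infarct, and the remote zone was the posterior wall of the same heart. The animals are named by their numbers 1022, 1322, 1323, 1623, 1922 and 3622.

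All animals were female Yorkshire pigs aged 10 to 12 weeks at the start, and all carried an infarct made by balloon occlusion of the left anterior descending artery for 60 min. All received tacrolimus at 0.75 mg/kg/day, mycophenolate mofetil at 500 mg/day and prednisolone at 20 mg/day from day 9. On day 14 the chest was opened, and vascular organoids built from human endothelial progenitor and smooth muscle cells, or fibrin sealant alone, were placed over the infarct and its border. Hearts were taken 28 days later. The treatment of each animal was not used, so each zone held animals of both treatments and the spread within a zone includes any difference between them. No library came from an uninjured heart, so the remote zone is tissue of an infarcted heart and not a healthy control.

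Small leucine-rich proteoglycans are secreted proteins whose core is a curved stack of leucine-rich repeats. The core sits on collagen fibrils, where it sets how thick the fibrils grow and how they pack, and most members carry chondroitin, dermatan or keratan sulphate chains. In the heart they are made mainly by fibroblasts and are known from scar tissue, and several of them also bind transforming growth factor β or Toll-like receptors.

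The family is divided by a cluster of 4 cysteines that caps the first repeat of the core. The coding DNA of that cluster is shown because it sorts the 10 genes into the groups by which the results are ordered. It was read 5′ to 3′ on the coding strand from the RefSeq genome and gene models of Sscrofa11.1, the build that the count tables also used, and the capitals mark the cysteine codons. In BGN (chrX:124291234-124291275, plus strand), DCN (chr5:91682819-91682860, plus) and ASPN (chr3:42183611-42183652, minus), 3, 1 and 6 codons separate the successive cysteines.
BGN: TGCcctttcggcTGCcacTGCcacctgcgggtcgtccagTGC
DCN: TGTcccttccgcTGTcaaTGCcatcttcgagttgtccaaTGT
ASPN: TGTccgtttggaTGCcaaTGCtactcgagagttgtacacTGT

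In LUM (chr5:91751605-91751655, plus), FMOD (chr9:64070480-64070530, minus), PRELP (chr9:64199544-64199594, plus), OMD (chr3:42148185-42148235, minus) and KERA (chr5:91796447-91796497, plus), the last spacing is 9 codons.
LUM: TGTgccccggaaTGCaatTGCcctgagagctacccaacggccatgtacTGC
FMOD: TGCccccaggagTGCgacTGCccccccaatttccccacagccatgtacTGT
PRELP: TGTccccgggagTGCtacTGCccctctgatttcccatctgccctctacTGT
OMD: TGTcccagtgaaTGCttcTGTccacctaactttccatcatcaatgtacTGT
KERA: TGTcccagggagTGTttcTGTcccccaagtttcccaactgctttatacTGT

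OGN (chr3:42124754-42124792, minus) has 2, 1 and 6 codons between its cysteines, and PODN (chr6:159172164-159172208, minus) has 3, 1 and 7.
OGN: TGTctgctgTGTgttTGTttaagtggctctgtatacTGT
PODN: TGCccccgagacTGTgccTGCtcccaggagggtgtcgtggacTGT

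The coding sequences ran from 298 codons in OGN to 612 codons in PODN, and each cluster lay unbroken within 1 exon stretch of the gene. ASPN also held a run of 5 aspartate codons near the start of its core (chr3:42183704-42183742, minus), the feature that gave asporin its name. The run is in capitals.
ASPN: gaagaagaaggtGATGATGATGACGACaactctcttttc

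Each library held from 15130210 to 31618680 reads on genes. The shallowest, from the border zone of animal 3622, had counts on 28024 genes, against at most 20148 elsewhere. Mitochondrial genes took between 5.69% and 17.3% of the border zone counts, against 13.6% to 33.5% of the remote zone counts. The summed level of 11 cardiomyocyte markers came to 62717 to 110668 CPM (read counts relative to library size, with sizes scaled by the trimmed mean of M-values) in the remote zone and from 12616 to 75869 CPM in the border zone, so both zones held heart muscle RNA. The border zone library of animal 1022 stood apart. It held the lowest cardiomyocyte sum of the 12 libraries and the highest sums of the fibroblast, collagen and macrophage lists.

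Among the 10 members, 6 were called higher in the border zone, and 1 of them (KERA) when the animal was a block in the fit. By the quasi-likelihood test of edgeR, Benjamini-Hochberg adjusted over all genes tested, these 6 had an adjusted p-value under 0.05. Of all 13844 genes, 2.06% were called higher. The 6 were FMOD, BGN, KERA, PRELP, LUM and OGN. KERA reached the test through its border zone libraries alone, so without it the count was 5 of 9, and 0 of 9 with the block. The median log2 fold change over the 10 members was 1.62, and 1.28 over the 9 without KERA, against 0.04 over all genes tested. At an unadjusted p-value under 0.05, 10 of 10 members, KERA among them, were higher, against 17% of all genes. In BGN, LUM, FMOD and PRELP every border zone library lay above every remote zone library, which held for 1.99% of all genes. The same held for KERA, but its place among the genes tested rested on its border zone libraries. These are bulk tissue libraries, so more cells of a type that makes a transcript and more of that transcript per cell cannot be told apart.

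The call depended on how the animals entered the test. With the animal as a replicate block, 1 member (KERA) had an adjusted p-value under 0.05, against 0.289% of all genes called higher, and the members' median log2 fold change was 1.43. Without both libraries of animal 1022 the count was 5 members, all but OGN of the 6, against 1.14% of all genes, and the median was 1.14. With the block and without animal 1022, a fit chosen after seeing the data, 6 members passed (BGN, ASPN, LUM, FMOD, PRELP and KERA), against 4.11% of all genes. Without animal 1323, 1623, 1922 or 3622, 0 members passed the quasi-likelihood test, against 0.0218%, 0%, 0.0999% and 0% of all genes. In these fits 9, 10, 8 and 9 members had an unadjusted p-value under 0.05. So did 2738 of 13784, 2662 of 13745, 3104 of 14008 and 2448 of 13858 genes tested, in either direction. By the Wald test of DESeq2, 8 members passed (all but OMD and PODN), against 4.7% of all genes. Without the border zone library of animal 3622 alone, 4 members passed against 1.12% of all genes, and LUM and KERA did not.

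**Figure D1:**
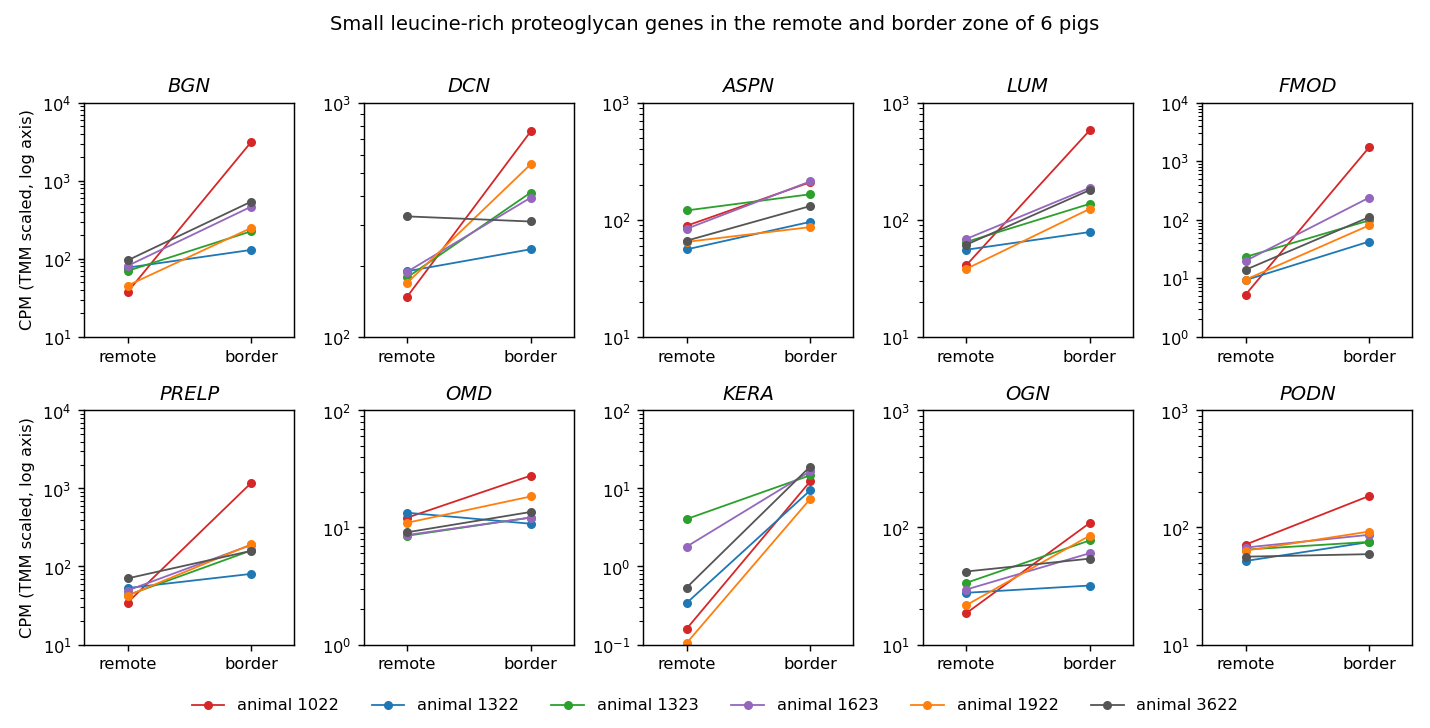
Level of each of the 10 members in CPM on a log axis, with 1 point per library and a line joining the border zone and remote zone libraries of each animal. The border zone points of BGN, LUM, FMOD, PRELP and KERA all lie above the remote zone points, and animal 1022 is the highest border zone point in 8 of the 10 panels.

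BGN, DCN and ASPN share the short last spacing of the cysteine cluster, and their log2 fold changes ran from 0.91 for ASPN to 3.55 for BGN. BGN (ENSSSCG00000012766, chrX:124282048-124295450, plus) encodes biglycan, a proteoglycan that binds collagen fibrils and, when released from the matrix, Toll-like receptors. Its level was 130.5 CPM at the lowest, 358 at the median and 3150.1 at the highest in the border zone, and 37.5, 73.7 and 95.7 CPM in the remote zone. The zones did not overlap, and the highest border zone value, in animal 1022, made up 66.1% of the summed CPM of the 6 border zone libraries. BGN rose in the border zone by a log2 fold change of 3.55 (SE 0.72, adjusted p = 0.0316, higher in 6 of 6 animals). With the animal as a block the value was 2.53 (SE 0.65, adjusted p = 0.0814), and without animal 1022 it was 2.12 (adjusted p = 0.0151).

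DCN (ENSSSCG00000000915, chr5:91678601-91713925, plus) encodes decorin, which coats collagen fibrils and binds transforming growth factor β. It was measured at 237 to 755 CPM in the border zone, with a median of 404, and at 148 to 327 CPM in the remote zone, with a median of 185. The zones overlapped, because the remote zone library of animal 3622 lay above the border zone libraries of animal 1322 and of animal 3622 itself, which had 237 and 311 CPM. The log2 fold change of DCN was 1.14 (SE 0.29, adjusted p = 0.0509), just outside the threshold, and it was higher in 5 of 6 animals. With the block it was 1.09 (adjusted p = 0.0915).

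ASPN (ENSSSCG00000008072, chr3:42165553-42192902, minus) encodes asporin, the member with the aspartate run, which binds collagen and carries no glycosaminoglycan chain. It had 86.8 to 213 CPM in the border zone and 56.0 to 120.4 CPM in the remote zone, with medians of 148 and 75.1. The ranges overlapped, yet the border zone library was the higher in 6 of 6 animals. The log2 fold change was 0.91 (SE 0.26, adjusted p = 0.0774) and 0.87 (SE 0.17, adjusted p = 0.0682) with the block. It was the only one of these 3 whose highest border zone library was not that of animal 1022 but that of animal 1623.

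The 5 members with the longer last spacing included FMOD, which had the largest fitted log2 fold change of the 10 without the block. FMOD (ENSSSCG00000015270, chr9:64062995-64073853, minus) encodes fibromodulin, a keratan sulphate proteoglycan of tendon and scar that guides fibril assembly and cross-linking. Its border zone levels were 1740.3, 42.7, 98.05, 240.4, 80.7 and 112 CPM in animals 1022, 1322, 1323, 1623, 1922 and 3622. In the same order, its remote zone levels were 5.27, 9.35, 23.3, 19.9, 9.51 and 14.0 CPM. Every border zone library thus lay above every remote zone library, and animal 1022 had both the highest border zone level and the lowest remote zone level. FMOD rose by a log2 fold change of 4.83 (SE 0.93, adjusted p = 0.0276), a fold of 28.4. The value fell to 3.37 (SE 0.76, adjusted p = 0.0773) with the block and to 2.90 (adjusted p = 0.0100) without animal 1022, whose border zone library contributed 75.2% of the gene's summed border zone CPM.

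KERA (ENSSSCG00000000917, chr5:91794317-91802362, plus) encodes keratocan, a keratan sulphate proteoglycan best known from the cornea. It was scarce in both zones. Border zone levels were 12.3, 9.45, 14.7, 16.6, 7.33 and 19.1 CPM in animals 1022, 1322, 1323, 1623, 1922 and 3622, and remote zone levels were 0.158, 0.339, 4.05, 1.79, 0.104 and 0.535 CPM. The remote zone levels rested on 4, 7, 123, 47, 2 and 8 reads. The zones did not overlap, and the border zone level was 7.33 to 19.1 CPM in the 4 animals with few remote zone reads and 14.7 and 16.6 CPM in animals 1323 and 1623. Unlike BGN, LUM, FMOD and PRELP, KERA was not highest in animal 1022, which contributed 15.5% of the gene's border zone total. The fitted log2 fold change of KERA was 3.45 (SE 0.70, adjusted p = 0.0305), and 4.18 (SE 0.58, adjusted p = 0.0430) with the block. KERA passed the filter on low counts through its border zone libraries alone, so these calls are given as a description of the counts. With no filter its adjusted p was 0.0680. When at least 10 counts were required in every library it was not tested, and 5 of the other 9 members passed. The adjusted p-value of KERA over fits that left out 1 animal ran from 0.0409 to 0.111.

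LUM (ENSSSCG00000000916, chr5:91748871-91756381, plus) encodes lumican, a keratan sulphate proteoglycan that limits fibril thickness. Its border zone levels ran from 78.7 to 582 CPM, with a median of 158, and its remote zone levels from 38.0 to 68.6 CPM, with a median of 58.4. No border zone library fell within the remote zone range. LUM rose by a log2 fold change of 1.97 (SE 0.41, adjusted p = 0.0338), which was 1.64 (adjusted p = 0.0798) with the block and 1.29 (adjusted p = 0.0231) without animal 1022.

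PRELP (ENSSSCG00000015271, chr9:64190978-64207008, plus) encodes a basic, heparin-binding member that links basement membranes to collagen. It had 80.4 to 1178 CPM in the border zone, with a median of 175, and 34.4 to 70.3 CPM in the remote zone, with a median of 46.0. The zones did not overlap, and animal 1022 contributed 60.1% of the border zone total. PRELP rose by a log2 fold change of 2.75 (SE 0.58, adjusted p = 0.0338), which was 2.04 (adjusted p = 0.0816) with the block and 1.596 (adjusted p = 0.0101) without animal 1022.

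OMD (ENSSSCG00000008073, chr3:42142603-42155032, minus) encodes osteomodulin, a keratan sulphate proteoglycan of bone and teeth. It had 10.8 to 27.7 CPM in the border zone and 8.49 to 13.4 CPM in the remote zone, with medians of 12.9 and 10.03. The ranges overlapped, and in animal 1322 the remote zone was the higher. The log2 fold change was 0.60 (SE 0.24, adjusted p = 0.149), 0.54 (adjusted p = 0.115) with the block, and 0.36 without the border zone library of animal 1022.

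OGN and PODN carry cysteine spacings of their own, and their log2 fold changes were 1.28 and 0.62. OGN (ENSSSCG00000034607, chr3:42116521-42135940, minus) encodes osteoglycin, also called mimecan, which regulates fibril formation and is expressed in vessel walls and heart. It had 31.9 to 109 CPM in the border zone, with a median of 68.9, and 18.4 to 42.1 CPM in the remote zone, with a median of 28.6. The overlap came from the border zone library of animal 1322, which lay below the remote zone libraries of animals 1323 and 3622. OGN rose by a log2 fold change of 1.28 (SE 0.28, adjusted p = 0.0338, higher in 6 of 6 animals), which was 1.22 (adjusted p = 0.0814) with the block and 0.999 (adjusted p = 0.0968) without animal 1022.

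PODN (ENSSSCG00000027114, chr6:159155251-159179456, minus) encodes podocan, a collagen-binding member first described in kidney that slows smooth muscle growth. It had 59.2 to 186 CPM in the border zone and 51.7 to 71.4 CPM in the remote zone, with medians of 80.9 and 64.0. The border zone was the higher in 6 of 6 animals, but by little in most. The log2 fold change was 0.62 (SE 0.24, adjusted p = 0.148), 0.52 (adjusted p = 0.115) with the block, and 0.31 without the border zone library of animal 1022.

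**Figure D2:**
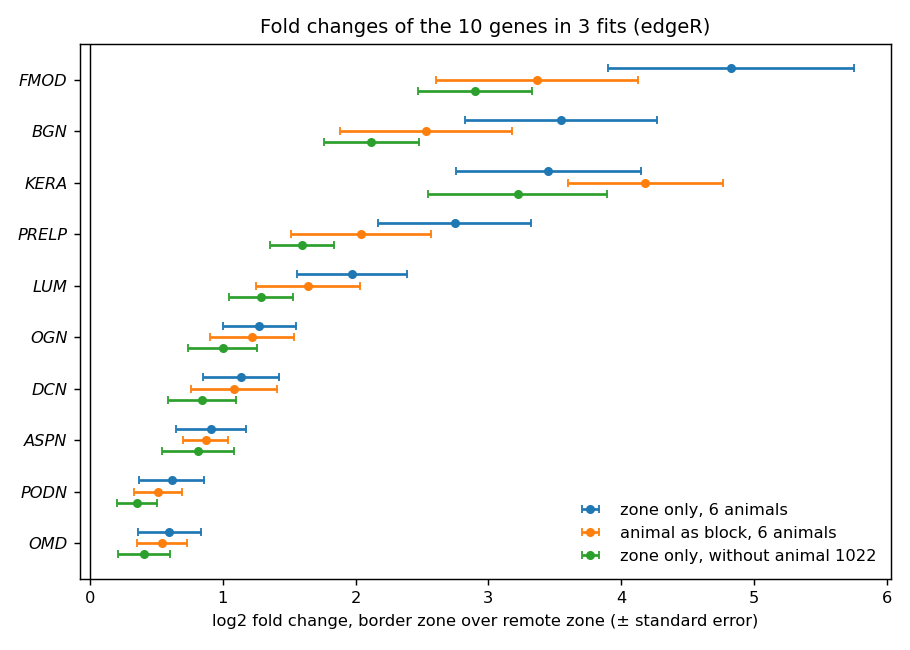
Log2 fold change of each member, border zone over remote zone, from the edgeR quasi-likelihood fit, with bars of 1 SE, without the block, with the animal as a block, and without animal 1022. FMOD, BGN, KERA and PRELP lie farthest to the right without the block, and the values of BGN, FMOD and PRELP drop most when animal 1022 is left out.

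Within animals the differences ran in 1 direction nearly throughout. Of the 60 differences (10 members in 6 animals), 58 were above 0 on the log2 CPM scale, and the exceptions were DCN in animal 3622 at -0.07 and OMD in animal 1322 at -0.31. The border zone was higher in 6 of 6 animals for 8 members, KERA among them, against 11.7% of all genes tested. The median difference over the members was 3.20 in animal 1022, 1.84 in animal 1922, 1.40 in animal 1623, 1.20 in animal 1323, 1.08 in animal 3622 and 0.57 in animal 1322. Animal 1022 thus led the family and animal 1322 came last. The border zone library of animal 1022 was the highest of the 6 for 8 members, which held for 32.6% of all genes tested.

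Part of the order of these differences was the same in every animal. FMOD differed from 2.07 in animal 1323 to 8.35 in animal 1022, and its difference was larger than that of BGN, DCN, ASPN, LUM, PRELP, OMD, OGN and PODN in 6 of 6 animals. KERA differed from 1.84 in animal 1323 to 5.68 in animal 1022. The KERA values depend on the prior count of 2 reads added before the logarithm, because some remote zone libraries held few reads of it. They are therefore not ranked against those of the other members. Of the other 8 members, BGN differed most in 4 animals, with differences of 6.39, 0.76, 1.69, 2.52, 2.45 and 2.50 in animals 1022, 1322, 1323, 1623, 1922 and 3622.

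**Figure D3:**
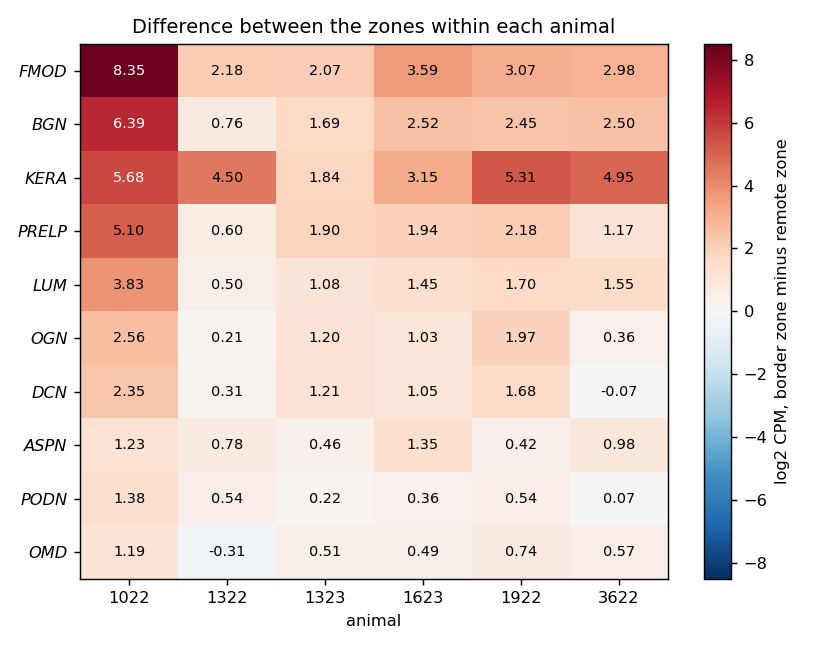
Difference between the zones within each animal, border zone minus remote zone in log2 CPM, with members in rows and animals in columns, red for higher in the border zone and blue for higher in the remote zone. FMOD and KERA are red in every animal, the column of animal 1022 holds the deepest reds, and the blue cells are DCN in animal 3622 and OMD in animal 1322.

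Levels of different genes were compared per kilobase of annotated exon (CPM per kb). The counts were made on Ensembl genes and the lengths are those of RefSeq exons, so the order depends on both. DCN was the most abundant member in both zones, with a median of 272 CPM per kb in the border zone and 124 in the remote zone. In the border zone the next were BGN at 149, LUM at 81.7, ASPN at 53.2, PRELP at 44.9, FMOD at 32.8, PODN at 26.1, OGN at 20.3, KERA at 5.23 and OMD at 2.2. DCN lay above BGN in 4 of the 6 border zone libraries, so these neighbours were not separated in every animal, while BGN above LUM and LUM above ASPN held in 6 of 6. In the remote zone DCN was followed by BGN at 30.6, LUM at 30.1, ASPN at 26.9, PODN at 20.6, PRELP at 11.8, OGN at 8.44, FMOD at 3.68, OMD at 1.68 and KERA at 0.169. There, DCN lay above BGN in 6 of 6 libraries, but BGN lay above LUM in only 2 and LUM above ASPN in only 3, so BGN, LUM and ASPN could not be ordered.

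The make-up of the family's RNA also differed between the zones. Together the 10 genes took 0.078% to 1.03% of all counts in the border zone, with a median of 0.162%, and 0.0435% to 0.0644% of them in the remote zone, with a median of 0.0476%. As a share of the summed CPM per kb of the family, BGN had a median of 19.5% in the border zone and 10.6% in the remote zone, and the border zone share was the higher in 6 of 6 animals. The share of FMOD was 4.94% against 1.27%, and that of KERA was 0.849% against 0.0538%, each also higher in 6 of 6 animals. PRELP was higher in 6 of 6 as well, at 6.27% against 4.71%. DCN took 38.4% in the border zone and 49.3% in the remote zone, where its share ran from 43.4% to 59.5%, and was the higher in the border zone in 2 of 6 animals. OMD went the other way in every animal, at 0.326% against 0.681%, and PODN in all but 1, at 3.64% against 7.63%. These shares must sum to 100% in each library, so a larger share of some members lowers that of the others.

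**Figure D4:**
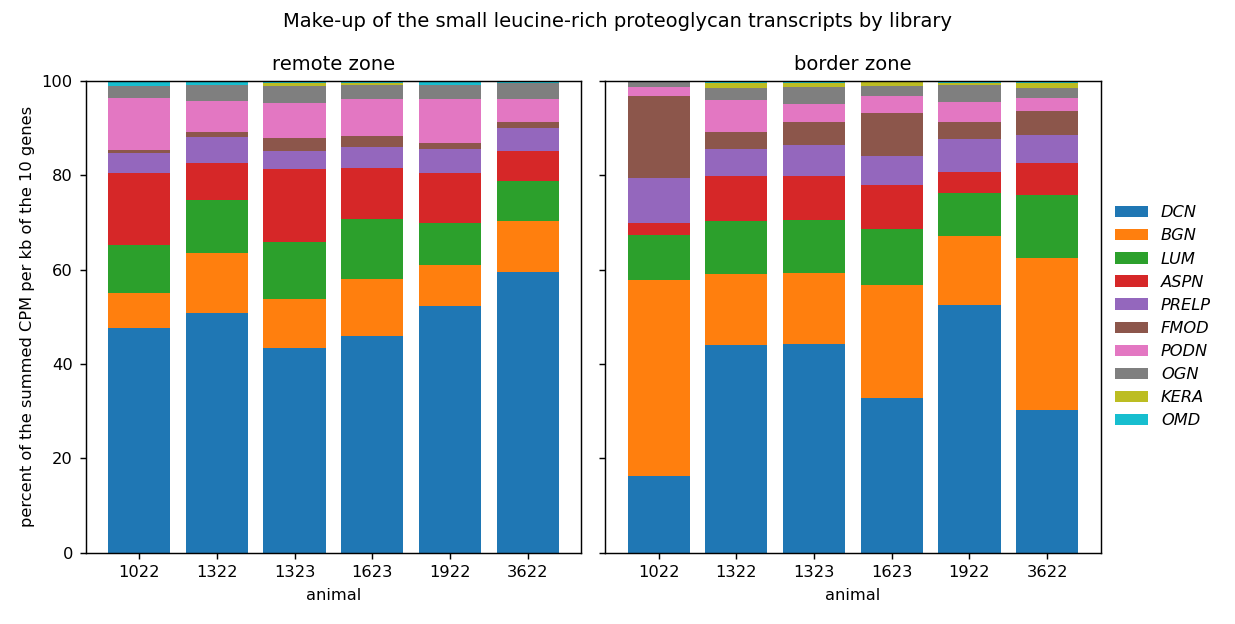
Share of each member in the summed CPM per kb of the 10 genes, as a stacked bar for each of the 12 libraries, starting at 0 and ending at 100%. DCN is the widest band in most bars, and the bands of BGN and FMOD are wider in the border zone bar than in the remote zone bar of every animal.

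Several members are neighbours on their chromosomes. On chromosome 3, OGN, OMD and ASPN follow each other on the minus strand, 6662 bp and 10520 bp apart. On chromosome 5, DCN, LUM and KERA follow each other on the plus strand, 34945 bp and 37935 bp apart, and on chromosome 9, FMOD and PRELP lie 117124 bp apart on opposite strands. FMOD differed more between the zones than PRELP in 6 of 6 animals. LUM had a log2 fold change of 1.97 beside 1.14 for DCN, and KERA, at 0.104 to 4.05 CPM in the remote zone, was too scarce there for its fold to be set beside theirs. OGN had 1.28 beside 0.60 for OMD and 0.91 for ASPN, and these 3 were not separated, since OGN differed more than ASPN in 3 of 6 animals and ASPN more than OMD in 4. The differences between neighbours were not tested. OGN, OMD and ASPN lie within the span of CENPP, a centromere gene on the opposite strand, with 0 bp of shared exon. CENPP was measured at 1.06 to 2.09 CPM in the border zone and 1.07 to 1.82 CPM in the remote zone (log2 fold change 0.04, adjusted p = 0.945), far below the levels of these 3 members.

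FMOD had the largest fitted change over all animals without the block, and KERA was scarce in the remote zone. The 200 bp before the annotated start are shown for both. They are given 5′ to 3′ on the strand of the gene (RefSeq, Sscrofa11.1), with matches to the searched motifs in capitals, and the annotated start need not be the start used in heart.
KERA (chr5:91794117-91794316, plus): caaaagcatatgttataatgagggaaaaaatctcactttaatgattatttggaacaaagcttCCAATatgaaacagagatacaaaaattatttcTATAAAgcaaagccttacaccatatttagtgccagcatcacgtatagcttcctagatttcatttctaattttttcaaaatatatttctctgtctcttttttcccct
FMOD (chr9:64073854-64074053, minus): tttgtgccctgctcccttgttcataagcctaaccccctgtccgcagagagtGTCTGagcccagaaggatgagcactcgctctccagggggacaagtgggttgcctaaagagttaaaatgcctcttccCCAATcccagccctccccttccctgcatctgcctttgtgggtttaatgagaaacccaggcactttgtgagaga

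Both strands were searched for the TATA box (TATAAA), the CCAAT box (CCAAT), the GC box (GGGCGG), the SMAD-binding element (CAGAC), the TEAD motif (GGAATG) and the AP-1 site (TGANTCA). KERA held TATAAA from -106 to -101 and CCAAT from -138 to -134, counted back from the start, and FMOD held CCAAT from -73 to -69 and CAGAC on the other strand from -149 to -145. Of 19610 windows of the same length before annotated genes, 7.69% held TATAAA, 27.7% CCAAT, 43.6% GGGCGG, 32.4% CAGAC, 7.98% GGAATG and 4.19% TGANTCA. Among the members, TATAAA was also found in OMD, GGGCGG in BGN, CAGAC in BGN, LUM, OMD and OGN, and GGAATG in PRELP and PODN, while TGANTCA was in none of the 10 windows. The KERA window was 29.5% G and C and the FMOD window 54%, against a median of 59% over all windows. These matches describe letters in the windows and not sites in use.

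Fibrillar collagens, which the family coats, were also called higher. All 6 genes of the fibrillar collagen list passed the threshold, and 0 passed with the animal as a block. Without COL11A1, which was scarce in the remote zone, 5 of 5 passed, and 0 with the block. Their median log2 fold change was 3.16 with COL11A1 and 3.04 without it, and the latter was 1.98 without animal 1022. COL11A1, a collagen of cartilage and of thin fibrils, had 0.633 to 286.7 CPM in the border zone and 0 to 1.51 CPM in the remote zone. It passed the filter through the border zone, so no fold is given. Its adjusted p was 0.0356, and 0.0782 without animal 1022. COL1A1, which encodes a chain of the main scar collagen, had 4.05 (adjusted p = 0.0295), COL3A1 2.98 (adjusted p = 0.0276) and COL5A1, a regulator of fibril thickness, 2.93 (adjusted p = 0.0293). Without animal 1022 these were 2.37, 2.01 and 1.81, each past the threshold. COL1A1 differed between the zones by 7.02, 1.08, 2.84, 2.22, 3.65 and 1.48 on the log2 CPM scale in animals 1022, 1322, 1323, 1623, 1922 and 3622, so animal 1022 led here too.

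Set against COL1A1 within each animal, most members changed less. The differences of DCN, ASPN, PRELP, OMD, OGN and PODN were below that of COL1A1 in 6 of 6 animals, and that of LUM in 5. A difference below that of COL1A1 in 6 of 6 animals held for 87.2% of all genes tested, so it sets these members apart from few others. FMOD lay above COL1A1 in 4 of 6 animals, with a median of 1.21 log2 units above it. The difference of KERA is not set against COL1A1, because it rests on few remote zone reads and on the prior count. BGN lay above COL1A1 in 2 animals and above COL3A1 in 4.

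The mean of 15 fibroblast marker genes, none of them a member, was also higher in the border zone in 6 of 6 animals, by 3.51, 1.32, 1.70, 1.81, 1.76 and 1.504 log2 units in animals 1022, 1322, 1323, 1623, 1922 and 3622. FMOD lay above this mean in 6 of 6 animals, by a median of 1.40, which held for 0.202% of all genes tested. KERA also lay above it, but by values that rest on few remote zone reads and on the prior count. BGN was above it in 4 animals (median 0.70 above), PRELP in 4 (median 0.17 above) and LUM in 2 (median -0.21 against it). DCN, ASPN, OMD and PODN lay below the mean in 6 of 6 animals, with medians of -0.88, -0.89, -1.25 and -1.44, and OGN in 5, with -0.87. A difference below the fibroblast mean in 6 of 6 animals held for 86.1% of all genes.

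The median log2 fold change of the fibroblast list was 2.10, and 1.36 without animal 1022. Of the list, 10 of 15 genes passed the threshold, against 2.06% of all genes called higher. With the block 4 of them also passed (POSTN, PI16, CTHRC1 and SFRP1, named after their values were seen), against 0.289% of all genes. CTHRC1, which is in both counts, was at 0.0484 to 1.27 CPM in the remote zone and reached the test through the border zone. The list's summed level was 986 to 7334 CPM in the border zone and 452 to 723 CPM in the remote zone, with no overlap. PDGFRA, a receptor that marks resting cardiac fibroblasts, rose by a log2 fold change of 1.26 (adjusted p = 0.0355), and its adjusted p was 0.0773 with the block and 0.0797 without animal 1022. TCF21, a fibroblast transcription factor, had 1.29 (adjusted p = 0.0865). Of the 12 macrophage markers 1 passed (LYZ, named after its values were seen, adjusted p = 0.0404), and 0 passed with the block, where LYZ had 0.0814. The median of their log2 fold changes was 1.49, and 0.57 without animal 1022, with summed levels of 147 to 1822 CPM in the border zone against 132 to 284 CPM in the remote zone. The cardiomyocyte list had a median of -0.55, and -0.31 without animal 1022, with 0 of 11 genes past the threshold, and its mean was higher in the border zone in 0 of 6 animals. TNNI3, a cardiomyocyte troponin, had -1.10 (adjusted p = 0.148), and PECAM1, an endothelial marker, 0.17 (adjusted p = 0.626). Of the endothelial, smooth muscle, lymphocyte, adipocyte and epicardial lists, 0 genes passed, with medians of 0.12, 0.99, 0.65, -0.07 and 0.39. The adipocyte median was -0.46 without ADIPOQ and PLIN1, which were scarce in the remote zone. Without animal 1022 the endothelial median was -0.05 and the smooth muscle median 0.49, and the mean of the smooth muscle list was higher in the border zone in 6 of 6 animals. With the block, 1 adipocyte gene passed (ADIPOQ, named after its values were seen, adjusted p = 0.0476). Its median remote zone level was 0 CPM and it reached the test through the border zone. The part of these cell types in the members' differences was not tested.

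Other leucine-rich relatives of the family were partly measurable. Of 9 listed, 6 were tested and 2 passed, both higher, against 2.06% of all genes called higher. Without PODNL1, which was scarce in the remote zone, 1 of 5 passed, with a median log2 fold change of 0.28. CHAD, which encodes the cartilage protein chondroadherin, had a log2 fold change of 4.19 (SE 0.89, adjusted p = 0.0338), and 2.42 (adjusted p = 0.0281) without animal 1022. PODNL1, a podocan-like gene, had 0.584 to 16.3 CPM in the border zone and 0.198 to 0.533 CPM in the remote zone (adjusted p = 0.0356, and 0.0895 without animal 1022). It passed the filter through the border zone, so no fold is given. With the block their adjusted p-values were 0.0773 and 0.0821. EPYC and OPTC, members known from cartilage and eye, were under the filter on low counts.

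The enzymes that build the sugar chains were listed in 3 groups. Of 22 listed genes for the linker and for chondroitin and dermatan sulphate, 21 were tested and 2 passed, against 2.06% of all genes called higher. The list's median log2 fold change was 0.63, and 0.34 without animal 1022. The 2 were DSE, the epimerase that turns chondroitin into dermatan sulphate, at 2.19 (adjusted p = 0.0489), and CHPF, a chondroitin polymerizing factor, at 1.43 (adjusted p = 0.0338). For keratan sulphate, 5 of 9 listed enzymes were tested and 0 passed. The largest change there was that of CHST2, a sulphotransferase, at 1.26 (adjusted p = 0.0986), which was 0.79 (adjusted p = 0.284) without animal 1022, and the list's median was 0.56. Both tyrosine sulphation enzymes were tested, 0 passed, and TPST1 had 0.63 (adjusted p = 0.168), which was 0.36 without animal 1022. With the block, the adjusted p-values of DSE and CHPF were 0.0780 and 0.0668. DSE was also past the threshold in neither the fit without animal 1022 (1.45, adjusted p = 0.111) nor those with DESeq2 size factors (adjusted p = 0.0565) or without mitochondrial genes (adjusted p = 0.0504).

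Among proteases that cut these proteoglycans, 7 of 9 were tested and 2 passed, with a median log2 fold change of 1.44. ADAMTS4, an aggrecan-cleaving protease, had 2.699 (adjusted p = 0.0338), and MMP2, a gelatinase that cuts decorin and biglycan, had 2.27 (adjusted p = 0.0338). Without animal 1022 these were 2.05 (adjusted p = 0.0725) and 1.40 (adjusted p = 0.0276). Among receptors and signalling partners, 16 of 17 were tested and 3 passed, with a median of 0.99, and 0.64 without animal 1022. Without CCN4 and ITGA2, which were scarce in the remote zone, 2 of 14 passed, with a median of 0.82. CCN4, a matricellular protein that binds decorin and biglycan, had 0.736 to 45.3 CPM in the border zone and 0.0792 to 0.436 CPM in the remote zone (adjusted p = 0.0338). It passed the filter through the border zone, so no fold is given. TGFB3, a growth factor that members of the family bind, had 2.43 (adjusted p = 0.0123), and EGFR, a receptor that decorin binds, had 1.81 (adjusted p = 0.0499), and 1.19 (adjusted p = 0.0705) without animal 1022. Not one of the protease and receptor genes named here passed with the block, where the lowest adjusted p was 0.0564, that of TGFB3. Of the pathway genes named here, 0 passed without animal 1323, 1623, 1922 or 3622.

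**Figure D5:**
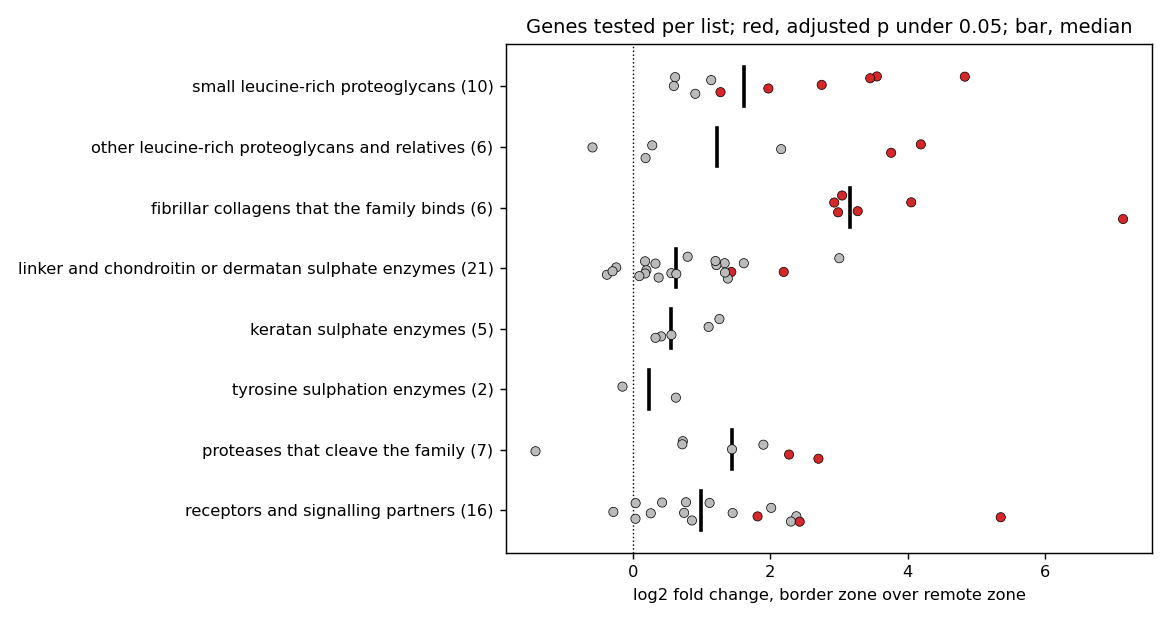
Log2 fold change, border zone over remote zone, of each tested gene of the members and of the 7 pathway lists, with 1 point per gene red where the adjusted p-value is under 0.05 and grey otherwise, and a bar at each list's median. The bar of the fibrillar collagens stands at 3.16 and that of the members at 1.62, and without the genes scarce in the remote zone these are 3.04 and 1.28, against 1.44 for the proteases.

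Genes whose profile over the 12 libraries was most like the members' mean profile were found by root mean square difference of centred log2 CPM. The candidates were 10196 other genes with a symbol and a mean log2 CPM of at least 1. TGFB3 was the closest, at 0.221 log2 units, followed by MYO5A at 0.261, LRRC17 at 0.27, ID4 at 0.276 and FSTL1 at 0.294. C1QTNF6, RCN1 and CD9 at 0.316, CDR2 at 0.319 and ATRNL1 at 0.326 completed the first 10, against a median of 1.16 over the candidates. By Spearman correlation, 3 of these 10 (TGFB3, MYO5A and ID4) stayed among the first 10. Within the family, LUM lay closest to the mean profile at 0.177. The closest pairs of members were DCN and OGN at 0.196, OMD and PODN at 0.299, and LUM and PRELP at 0.426, while KERA lay farthest from any other, at 1.39 from FMOD. These distances are descriptions over libraries that share animals.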

How the data were processed

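The deposited values are raw read counts for each gene, not normalized. The authors made them with featureCounts 2.16.1 from STAR 2.7.10a alignments. Genome and genes were Sscrofa11.1 in Ensembl release 113, and read quality was viewed in MultiQC 1.17 and FastQC 0.12.1. Counting options for reads of several genes are not given in the sources used here, and the libraries did not keep strand. Symbols paired 15623 of 35682 identifiers. Zone and animal were taken from the labels. Here they were tested with edgeR 4.0.16 in R 4.3.3 (filterByExpr, TMM, robust quasi-likelihood fit with zone only, Benjamini-Hochberg adjustment, threshold 0.05) and DESeq2 1.42.0 as an alternative, and in Python 3.11.15 with pandas 2.3.3 and NumPy 2.4.6. Each SE was computed as log2 fold change over root F. Log2 CPM used a prior count of 2. Exon lengths and sequences came from RefSeq on Sscrofa11.1.

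Replicates were separate animals. No libraries of a zone agreed within sampling noise (lowest chi-square per gene 27.5). The libraries of a number share an animal, so they are pairs. Deviations from the zone means correlated across genes with a mean r of 0.35 (-0.03 in animal 1022 to 0.57 in animal 1323, 4 of 6 over 0.1). On simulated counts for this comparison (13712 genes tested), edgeR found 84.7% of the 4-fold changes and 42.9% of the 2-fold changes, with 7 false calls. With the block these shares were 76.5% and 21.4%. The simulated counts held no difference between animals, so they cannot show what the block gains on paired libraries.

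The members and lists were chosen with earlier results of these data known. Named genes were all members, up to 4 called genes of each pathway list (the 2 largest and 2 smallest changes where more passed, the largest where none did), 6 reference genes, genes overlapping members, and the 10 nearest profiles. Alternatives were the block, DESeq2, DESeq2 size factors, library totals, no filter, a minimum of 10 counts per library, leaving out mitochondrial genes or each animal in turn, and 1 border zone library (1022 or 3622) left out. Leaving out genes with a median remote zone count under 10 was added after the data were seen.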

Additional observations from a re-analysis of the deposited data

Results flagged for a closer look

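In 10 members and 3 measures (log2 CPM in each zone and the difference between the zones), 7 of 30 groups of 6 animals held a value far from the other 5 by Dixon's test, with a gap over 0.625 of the whole range. Chance gives about 1 in 20 such groups, and groups of related genes in the same animals are not independent. In 6 of the 7 the value was that of animal 1022. The difference between the zones in animal 1022 was 6.39 log2 units for BGN (next highest 2.52), 3.83 for LUM (next 1.70), 8.35 for FMOD (next 3.59), 5.10 for PRELP (next 2.18) and 1.38 for PODN (next 0.54). The border zone level of PRELP in animal 1022 was 10.20 log2 CPM, against 7.58 in the next library. The seventh was the remote zone level of DCN in animal 3622, at 8.36 log2 CPM against 7.58 in the next library. The remote zone library of animal 3622 also had the highest mitochondrial share, 33.5%. The part of that share in the level of DCN was not tested.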

How the results depend on the processing

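The members past the threshold numbered 6 in the analysis reported, 1 with the animal as a replicate block, 2 with no filter, 8 with DESeq2 and 8 with library totals. With each animal left out they ranged from 0 to 6, without the border zone library of animal 3622 they were 4, and with the block and each animal left out (chosen after seeing the data) they ranged from 0 to 6. The genes past the threshold numbered 287, and 41 with the replicate block, 1724 with DESeq2 (1415 higher and 309 lower), 1551 with library totals (1545 higher, median of all genes 0.32), 139 with no filter and 149 with at least 10 counts in every library. They ranged from 0 (without animal 1623 or 3622, 2662 and 2448 at an unadjusted p under 0.05) to 519 with each animal left out, were 156 without the border zone library of animal 3622, and ranged from 0 to 856 with the block and each animal left out (51 without animal 1322). With the block and without animal 1623, 1922 or 3622 the count was 0 (3227, 3565 and 2779 unadjusted). The median log2 fold change of the members ran from 1.10 with the block and without animal 1022 to 1.99 with library totals. Without division by length, the share of DCN in the remote zone was 34.0% and those of PRELP were 10.9% in the border zone and 8.62% in the remote zone. With each animal left out, the log2 fold change of PECAM1 ran from -0.015, a reversed sign without animal 1022, to 0.25 without animal 1322. For the 10 members, 138 of 209 alternative values kept direction and side of the threshold, 66 lost the call, 5 gained one and 0 turned direction. All 66 losses fell among the 6 members called in the analysis reported, since the others had no call to lose. For those 6 members, more alternative values lost the call than kept it. The causes of these shifts were not tested.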

Other observations

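Some genes known from tendon and cartilage were also called higher in the border zone. Of 12 listed, 7 were tested and 4 passed, each with more RNA in the border zone, against 2.06% of all genes called higher. COMP and CILP2 had median remote zone levels of 0.0334 and 0.157 CPM and reached the test through the border zone, so no median over the list is given. Without these genes 3 of 5 passed, and 1 with the block. The summed level of the 12 listed genes was 451 to 4850 CPM in the border zone against 43.5 to 165 CPM in the remote zone. The 4 genes, named after their values were seen, were CILP, THBS4, TNC and CILP2. CILP, a cartilage matrix protein also made by cardiac fibroblasts, had a log2 fold change of 3.98 (adjusted p = 0.00875 by the edgeR quasi-likelihood test, 0.0209 with the animal as a block). THBS4, a matricellular protein of tendon and injured heart, had 3.27 (adjusted p = 0.0244, 0.0563 with the block). TNC and CILP2 had adjusted p-values of 0.0253 and 0.0338, and 0.0564 and 0.0746 with the block, so 1 of the 4, CILP, passed with it. TNMD, MKX, ACAN, CLEC3A and MATN3 were under the filter on low counts, and SCX, COMP and SOX9 did not pass.

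In the remote zone, the animals with the most KERA were also those with the most FMOD. Animals 1323 and 1623 had 4.05 and 1.79 CPM of KERA and 23.3 and 19.9 CPM of FMOD, and the other 4 animals had 0.104 to 0.535 CPM of KERA and 5.27 to 14.0 CPM of FMOD. The treatment of these animals was not used, and the pattern was not tested.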
